A study of Drosophila melanogaster with 8 samples.

Results

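The circadian clock genes per, tim, Clk, cyc, vri, Pdp1, cry and cwo were examined together with cu (curled) in dissected larval ring glands of Drosophila melanogaster. These 9 genes, of 17558 in the deposited count table, were taken by their exact gene symbols and not by their measured values. Ring glands came from w[1118] larvae (wild type, about 5 days after egg laying) and from kdm5[140] larvae (null for the histone demethylase KDM5, about 7 days after egg laying), both in the wandering stage of the third instar and both without treatment. Each genotype had 4 libraries, and each library held 80 ring glands, from males and females in equal number. Genotype and age in days cannot be told apart in these groups. Animals were kept at 25°C with 12 h of light per day, and the hour of the day at which glands were dissected is not given in the sources used here. Whether libraries of 1 genotype came from separate crosses is not given either, so p-values measure the spread between these pools.

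The clock is a feedback loop of transcription. CLK and CYC, a pair of bHLH-PAS proteins, bind E-boxes and activate per, tim, vri, Pdp1 and cwo, and PER and TIM return to the nucleus to repress CLK and CYC. VRI represses and PDP1 activates Clk in an interlocked loop, CWO competes for E-boxes, and CRY is a blue-light photoreceptor that leads to the loss of TIM. In flies and mammals, KDM5 proteins have been described as partners of the CLK activator complex. The prothoracic gland, the largest part of the ring gland, holds a clock of its own that works with the brain clock in timing adult emergence. The product of cu is the fly relative of nocturnin, an enzyme whose transcript follows the clock in vertebrates.

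Counts on genes ranged from 17131110 to 19494692 per library. The labels could not be checked by a loss of the targeted transcript (below), so libraries labelled Kdm5[140] are called mutant-labelled here. The prothoracic gland markers phm, dib, sad, spok, nvd, sro and tor were present in all libraries, with a summed level of 41172 to 44178 TMM-normalized counts per 1000000 (CPM) in wild type and 30338 to 39373 CPM in mutant-labelled libraries. Of these 7 markers, 3 had a positive and 4 a negative log2 fold change. edgeR called 2 as higher and 1 as lower, against 17.5% of all tested genes. The largest shares of the sum came from phm, sad and spok, with means of 14802, 13073 and 11446 CPM in wild type. Markers of other cells were present too, with 127 to 184 and 162 to 228 CPM for 5 neuron markers and 811 to 2508 and 1104 to 5708 CPM for 6 fat body markers. All 5 neuron markers had a positive log2 fold change, with a median of 0.39. Of these 1 was called, against 17.5% of all tested genes. It was elav, with a log2 fold change of 0.39 ± 0.08 (SE; FDR = 0.00495 by edgeR). The part of neurons in the differences of the clock genes was not tested. The clock neuron peptide Pdf had 1 to 27 counts in any library, and its receptor Pdfr had 0 to 8. The transcript of the targeted gene, listed as lid, was higher in mutant-labelled libraries (log2 fold change 0.35 ± 0.07, SE; FDR = 0.00437 by edgeR). In bulk tissue, fewer cells of a type and less RNA per cell cannot be told apart.

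Transcript levels of the 9 genes spanned a wide range. Levels were compared between genes as length-scaled CPM, the CPM divided by the gene length in kilobases. cu had by far the highest level, 1827 ± 188 length-scaled CPM in wild type and 2099 ± 206 in mutant-labelled libraries (SD, n = 4 each), and held place 56 of 17558 genes by its mean over all 8 libraries. In wild type the order continued with cyc (29.1 ± 2.42), vri (25.4 ± 3.86), cwo (16.0 ± 2.54), tim (5.54 ± 0.38), cry (4.07 ± 1.01), Pdp1 (2.16 ± 0.29), per (0.272 ± 0.148) and Clk (0.0654 ± 0.0296; length-scaled CPM, SD, n = 4 each). The ranges of cyc and vri overlapped, as did those of tim and cry, and all other neighbours in that order were apart. In mutant-labelled libraries, vri came before cyc, and the ranges of cyc and cwo, of cwo and tim, of cry and Pdp1, and of per and Clk overlapped. The core genes per and Clk were thus the least abundant of the 9 in either genotype. By their means over all 8 libraries they held places 10354 and 11218 of all genes.

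**Figure D1:**
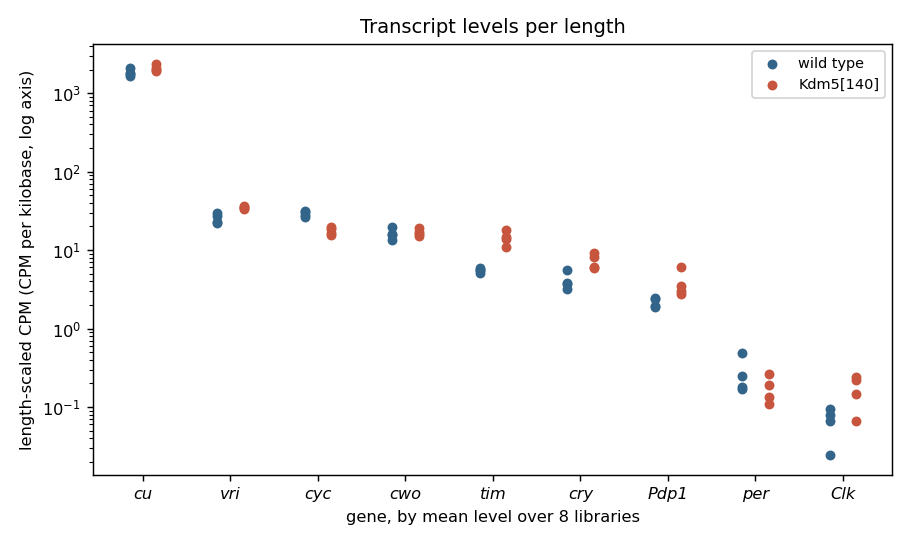
Length-scaled CPM (CPM per kilobase of gene, log axis) of each gene in the 4 wild-type (blue) and 4 Kdm5[140] (red) libraries, 1 point per library, in order of the mean over 8 libraries. cu lies between 1659 and 2384 in all libraries, while per and Clk stay below 0.5.

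Differences between genotypes were tested on the counts with edgeR across all 9317 genes that passed its filter on low counts, at an FDR of 0.01. Among the 8 clock and cu genes tested, tim and vri were higher and cyc was lower in mutant-labelled libraries. Of all tested genes 17.5% were called, 7.91% as higher and 9.62% as lower. The ranges of the genotypes did not overlap for 5 of the 9 genes, higher for tim, vri, Pdp1 and cry and lower for cyc, where 33.2% of all tested genes were without overlap (15.6% higher and 17.6% lower). DESeq2 called 5 of the 9 (the same genes, against 21.1% of all genes it tested), and an edgeR FDR of 0.05 also gave 5, against 30.9%. Clk did not pass the filter. The median log2 fold change of the 8 genes was 0.32, against 0.02 over all tested genes.

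**Figure D2:**
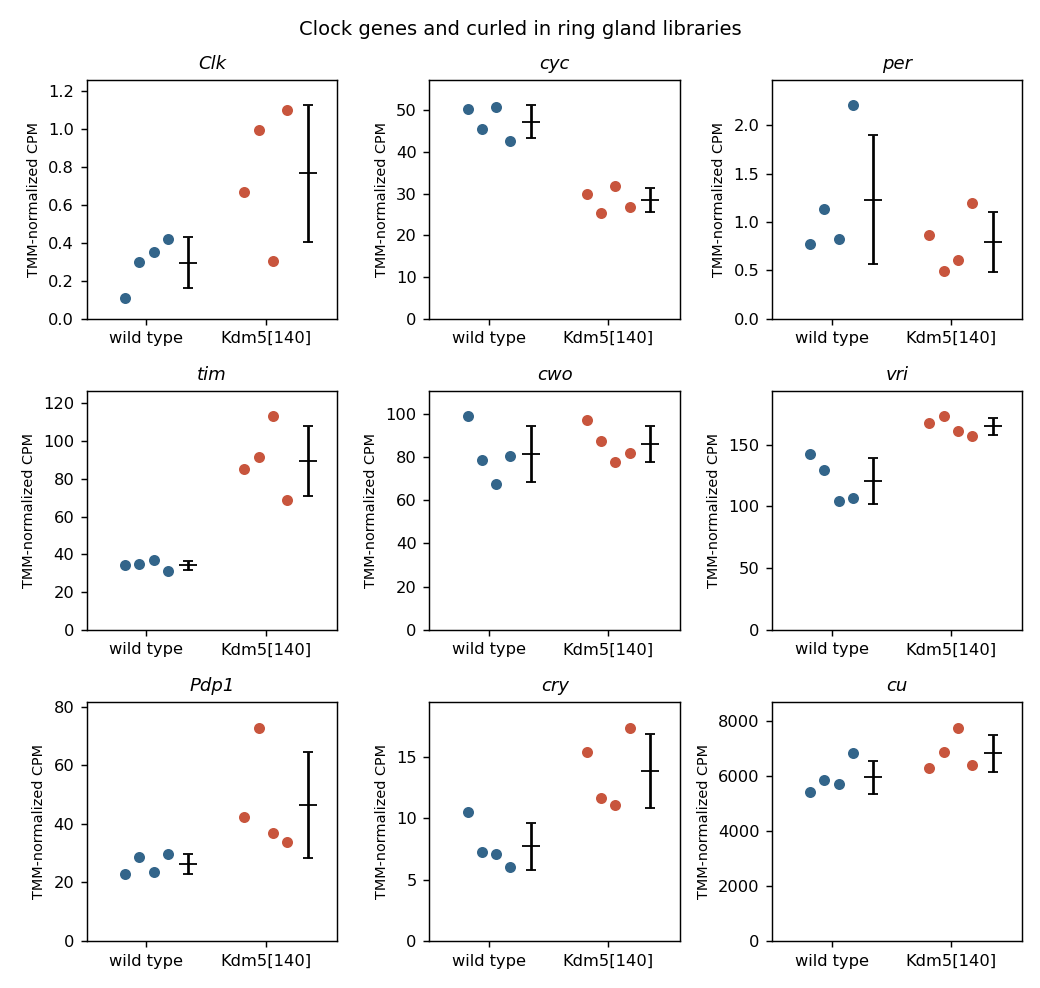
TMM-normalized CPM of each of the 9 genes by genotype, 1 point per library in replicate order, with the mean and SD of 4 libraries beside them (each axis starts at 0). All 4 Kdm5[140] points lie above the wild-type points for tim, vri, Pdp1 and cry and below them for cyc, and the genotypes overlap for Clk, per, cwo and cu.

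The activator partners Clk and cyc differed widely in level and in what could be tested. Clk (FBgn0023076, minus strand of 3L, dm6, from 7763233 to 7775603) had 2, 5, 6 and 8 counts in wild-type replicates 1 to 4. In replicates 1 to 4 labelled Kdm5[140] it had 13, 18, 5 and 22 counts. Pooled over 4 libraries this was 0.296 CPM in wild type (95% exact Poisson interval 0.183 to 0.452) and 0.780 CPM in mutant-labelled libraries (0.593 to 1.01), intervals that cover counting error only. Replicate 3 labelled Kdm5[140] lay within the wild-type range. Without the filter on low counts the log2 fold change of Clk was 1.34 (edgeR FDR = 0.171), which did not pass the threshold.

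cyc encodes the constant partner of CLK and lies on the minus strand of 3L (FBgn0023094, from 19813770 to 19815938), with a single annotated transcript. It had 50.2, 45.5, 50.7 and 42.5 CPM in wild-type replicates 1 to 4. Mutant-labelled libraries had 29.8, 25.4, 31.8 and 26.7 CPM, all below the lowest wild-type library. The means were 47.2 ± 3.93 and 28.5 ± 2.91 CPM (n = 4 each, SD), which gave a log2 fold change of −0.73 ± 0.09 (SE; FDR = 0.00036 by edgeR), or 1.66-fold lower. cyc stayed past the threshold in all 8 fits that left out 1 library, between −0.79 and −0.68. Among libraries labelled Kdm5[140], cyc was highest in replicate 3, where the summed prothoracic gland markers of that genotype were also highest (39373 CPM). The part of prothoracic gland content in the value of cyc was not tested.

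The repressor genes per and tim, whose proteins act as a pair, stood far apart in level. tim (FBgn0014396, minus strand of 2L, from 3493986 to 3508119) had 34.1, 34.8, 36.8 and 31.1 CPM in wild-type replicates 1 to 4. It had 85.2, 91.4, 113 and 68.6 CPM in replicates 1 to 4 labelled Kdm5[140]. Every library with that label lay above every wild-type library, and the values varied more among them (coefficient of variation 20.5%, against 6.88% in wild type). The means were 34.2 ± 2.35 and 89.5 ± 18.4 CPM (n = 4 each, SD), which gave a log2 fold change of 1.39 ± 0.14 (SE; FDR = 0.00011 by edgeR), or 2.62-fold higher. This was the largest difference among the clock genes tested, and it remained past the threshold in all 8 fits without 1 library, at 1.25 or more in each.

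The highest tim value, in replicate 3 labelled Kdm5[140], came from the library with the highest summed prothoracic gland markers of its genotype (39373 CPM, against 30338 to 32162 in the other 3). Without that library the log2 fold change of tim was 1.25 (edgeR FDR = 0.000116). The marker sums of all libraries labelled Kdm5[140] were below those of wild type (41172 to 44178 CPM). The 7 markers did not share a direction, with 3 positive and 4 negative log2 fold changes. Their sum is thus an uncertain measure of gland content. The part of prothoracic gland content in the value of tim was not tested. tim is annotated with 10 transcripts from 3 start sites, which counts per gene do not separate. In the reference annotation, 545 of its 7039 exon bases overlap lncRNA:CR46495 on the opposite strand and 151 overlap snoRNA:Or-CD16 on the same strand. The table gives tim a length of 6181 bases, so whether the shared bases were counted as tim is not known, and whether reads were counted by strand is not given in the sources used here.

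per (FBgn0003068, plus strand of X, from 2685580 to 2692780) had 14, 19, 14 and 42 counts in wild-type replicates 1 to 4. In replicates 1 to 4 labelled Kdm5[140] it had 17, 9, 10 and 24 counts, which overlapped with wild type. Pooled over 4 libraries this was 1.25 CPM in wild type (95% exact Poisson interval 1.01 to 1.54) and 0.807 CPM in mutant-labelled libraries (0.616 to 1.04). The log2 fold change of −0.63 ± 0.46 (SE; FDR = 0.325 by edgeR) did not pass the threshold. It ran from −0.90 to −0.18 with 1 library left out, the latter without wild-type replicate 4. In that library the 2 glial markers summed to 42.6 CPM, the highest of any library. The 3 clock neuron markers did not share one order there, with Pdf at its highest (27 counts), ITP at its lowest (69.7 CPM) and a sum of 71.2 CPM, within the 70.7 to 102 CPM of all libraries. The part of these cells in the value of per was not tested. Exons of per share 49 of their 4527 bases with dyw on the opposite strand, which had 4 to 13 counts per library. Counts of per are uncertain to that small extent.

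In the interlocked loop, vri and Pdp1 encode bZIP proteins with opposite effects on Clk. vri (FBgn0016076, plus strand of 2L, from 5288944 to 5311223) had 142, 129, 104 and 107 CPM in wild-type replicates 1 to 4. It had 168, 173, 161 and 157 CPM in replicates 1 to 4 labelled Kdm5[140], above all wild-type values and within a narrow range. The means were 121 ± 18.3 and 165 ± 6.98 CPM (n = 4 each, SD), which gave a log2 fold change of 0.45 ± 0.10 (SE; FDR = 0.00779 by edgeR). This call was kept in only 1 of the 8 fits without a library (edgeR FDR from 0.00124 to 0.0262). That was the fit without wild-type replicate 1, where the log2 fold change was 0.54.

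Pdp1, which extends over 55.9 kb of 3L on the minus strand (FBgn0016694, from 7811458 to 7867369) with 13 annotated transcripts, had 22.9, 28.7, 23.6 and 29.8 CPM in wild-type replicates 1 to 4. It had 42.2, 72.9, 36.7 and 33.9 CPM in replicates 1 to 4 labelled Kdm5[140]. The genotypes did not overlap, but replicate 2 stood well above the other 3 with its label. The log2 fold change of 0.82 ± 0.24 (SE; FDR = 0.0341 by edgeR) did not pass 0.01, while the DESeq2 Wald test, the tool the authors used, called it (adjusted p = 0.00242). Without replicate 2 labelled Kdm5[140] the log2 fold change was 0.52 (edgeR FDR = 0.0159), a fall by more than the standard error.

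cwo, whose bHLH-Orange protein binds the same E-boxes as CLK and CYC, lies on the plus strand of 3R (FBgn0259938, from 10388258 to 10400752). It had 98.8, 78.6, 67.6 and 80.7 CPM in wild-type replicates 1 to 4. In replicates 1 to 4 labelled Kdm5[140] it had 97.0, 87.5, 77.7 and 82.0 CPM, all within the wild-type range. Means of 81.4 ± 12.9 and 86.1 ± 8.34 CPM (SD, n = 4 each) gave a log2 fold change of 0.08 ± 0.11 (SE; FDR = 0.629 by edgeR).

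The photoreceptor gene cry (FBgn0025680, plus strand of 3R, from 19212154 to 19215442) had 10.5, 7.27, 7.06 and 6.05 CPM in wild-type replicates 1 to 4. It had 15.4, 11.6, 11.1 and 17.4 CPM in replicates 1 to 4 labelled Kdm5[140], without overlap between genotypes. The log2 fold change of 0.85 ± 0.21 (SE; FDR = 0.0124 by edgeR) fell just short of the threshold and was past it with DESeq2 (adjusted p = 0.00147). Of its 1896 exon bases, 329 are shared with lncRNA:CR46393 on the same strand, so counts of cry are uncertain to that extent. Within each genotype, the order of the libraries by cry was also their order by the 6 fat body markers. These summed to 2508, 1791, 1038 and 811 CPM in wild-type replicates 1 to 4, and to 3715, 2013, 1104 and 5708 CPM in replicates 1 to 4 labelled Kdm5[140]. That likeness was noticed after the values were seen, and the part of fat body in the value of cry was not tested. The fat body sums overlapped between genotypes. Of the 6 markers 5 had a positive log2 fold change and 1 a negative one, with a median of 1.01. edgeR called 0 of the 6, against 17.5% of all tested genes (0 with an unadjusted p under 0.05). DESeq2 also called 0, against 21.1% of all genes it tested.

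cu (FBgn0261808, plus strand of 3R, from 11197592 to 11208633, with 6 annotated transcripts and no overlapping gene) had 5396, 5840, 5719.7 and 6818 CPM in wild-type replicates 1 to 4. It had 6289, 6884, 7755 and 6386 CPM in replicates 1 to 4 labelled Kdm5[140]. Wild-type replicate 4 lay among the values of the other genotype. The means were 5944 ± 613 and 6828 ± 671 CPM (SD, n = 4 each), and the log2 fold change of 0.20 ± 0.10 (SE; FDR = 0.154 by edgeR) did not pass the threshold. As for tim, the highest value was that of replicate 3 labelled Kdm5[140], and the part of prothoracic gland content in it was not tested. With 97257 to 129657 counts per library, counting error was small beside the spread between libraries.

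**Figure D3:**
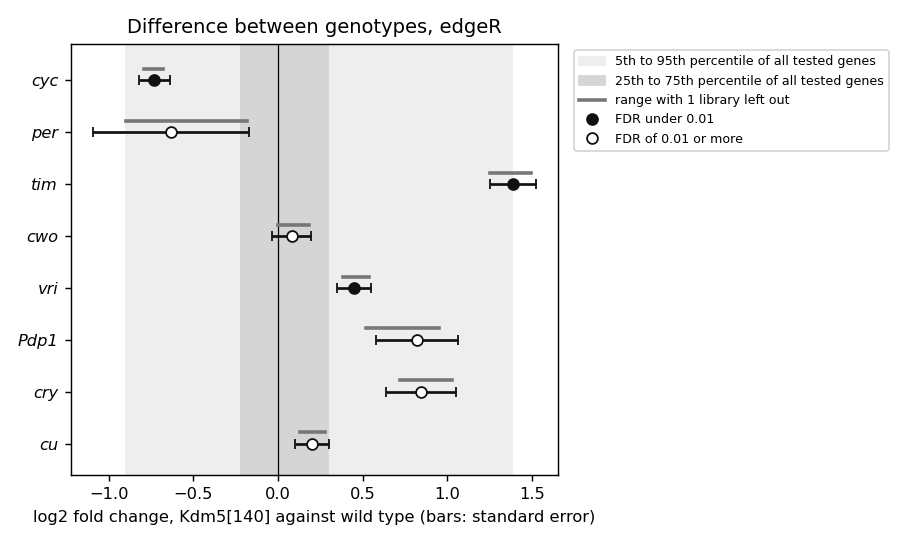
edgeR log2 fold change, Kdm5[140] against wild type, of the 8 tested genes, with standard errors, and in grey the range over fits with 1 library left out. Light shading runs from the 5th (−0.90) to the 95th percentile (1.38) of all 9317 tested genes, dark shading from the 25th to the 75th; tim, at 1.39, lies at the upper edge, and per has the widest error.

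Ratios within a library do not depend on the scaling between libraries and were taken from length-scaled levels, as a description. The log2 ratio of per to tim was −5.02, −4.49, −5.03 and −3.37 in wild-type replicates 1 to 4 and −6.17, −7.07, −7.10 and −5.39 in replicates 1 to 4 labelled Kdm5[140], without overlap. This ratio rests on the small counts of per. Its mean differed by −1.95 between genotypes, and the log2 fold change of tim given above (1.39) enters it. The lack of overlap is thus not a result apart from that of tim. The log2 ratio of vri to Pdp1 was 3.55 ± 0.33 in wild type and 3.25 ± 0.44 in mutant-labelled libraries (SD, n = 4 each), and the ranges overlapped. For Clk to cyc the ratio was −8.95 ± 0.94 and −6.85 ± 0.98 (SD, n = 4 each), also with overlap and with as few as 2 counts of Clk.

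Genes with profiles most like those of tim, cyc and vri were sought among the 8839 tested genes whose mean reached 1 CPM, by the root mean square difference of centred log2 CPM over the 8 libraries. For tim these were CG4386 (difference 0.12 on the log2 scale) and wat (0.13), which encodes a fatty acyl-CoA reductase. For cyc they were CG18549 and miple2, at 0.05 and 0.06. For vri they were Lhr and CG6613, both at 0.07. With 2 groups of libraries, such a measure mostly follows the difference between genotypes.

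Genes acting on the clock proteins showed smaller differences than tim or cyc. Of 15 kinases, phosphatases, ubiquitin ligases and other regulators (among them the casein kinase gene dco, the GSK3 gene sgg, the F-box gene slmb and the light-response F-box gene jet), all were tested, 1 was higher and none was lower (0 of 15), against 17.5% of all tested genes called. The median log2 fold change of the list was 0.06 and its range was −0.28 to 0.43. The called gene was Ubpy, a ubiquitin protease that acts on CLK and is now named Usp8, with 48.8 ± 1.42 CPM in wild type and 59.9 ± 1.58 CPM in mutant-labelled libraries (n = 4 each, SD; log2 fold change 0.30 ± 0.05, SE; FDR = 0.00284 by edgeR). It was past the threshold in 5 of the 8 fits without 1 library, and not in those without wild-type replicate 2 or without replicate 2 or 4 labelled Kdm5[140]. DESeq2 called 2 of the 15 genes, against 21.1% of all.

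Of 8 genes that link the brain clock to the gland (Pdf, Pdfr, sNPF, sNPF-R, Ptth and tor) or act on per through nuclear receptors (Eip75B and Hr51), 7 were tested and edgeR called 0, against 17.5% of all tested genes. One of them, the PTTH receptor gene tor, had an unadjusted p under 0.05, and DESeq2 called 1 gene, against 21.1% of all genes it tested. The untested gene was Pdfr, with at most 8 counts per library. The median log2 fold change of the 7 was 0.32.

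Of 8 ecdysone synthesis genes, some of which others have tied to per and tim in the prothoracic gland, 7 were tested. The untested gene was spo, with at most 2 counts. edgeR called 3 of the 7, against 17.5% of all tested genes, with sro and dib higher and spok lower in mutant-labelled libraries. nvd, phm, sad and shd did not pass the threshold. The short-chain dehydrogenase gene sro had 606 ± 54.7 and 1217 ± 195 CPM (n = 4 each, SD; log2 fold change 1.01 ± 0.12, SE; FDR = 0.000246 by edgeR). The P450 gene dib had 588 ± 34.0 and 869 ± 148 CPM (log2 fold change 0.56 ± 0.11, SE; FDR = 0.0044 by edgeR), and its call was kept in 4 of 8 fits without 1 library, being lost without wild-type replicate 2, 3 or 4 or replicate 2 labelled Kdm5[140]. The P450 gene spok had 11446 ± 361 and 6447 ± 970 CPM (log2 fold change −0.83 ± 0.10, SE; FDR = 0.000357 by edgeR). The median of the 7 was −0.22. shd, which encodes the P450 for the last step and was singled out after its values were seen, had the largest value of the list (log2 fold change 2.22, FDR = 0.0251 by edgeR). That value rested on replicate 4 labelled Kdm5[140], with 95 counts of shd against 18 to 23 in the other 3, and was 1.37 without it. This library also had the highest summed fat body markers (5708 CPM), and the part of fat body in the value of shd was not tested.

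**Figure D4:**
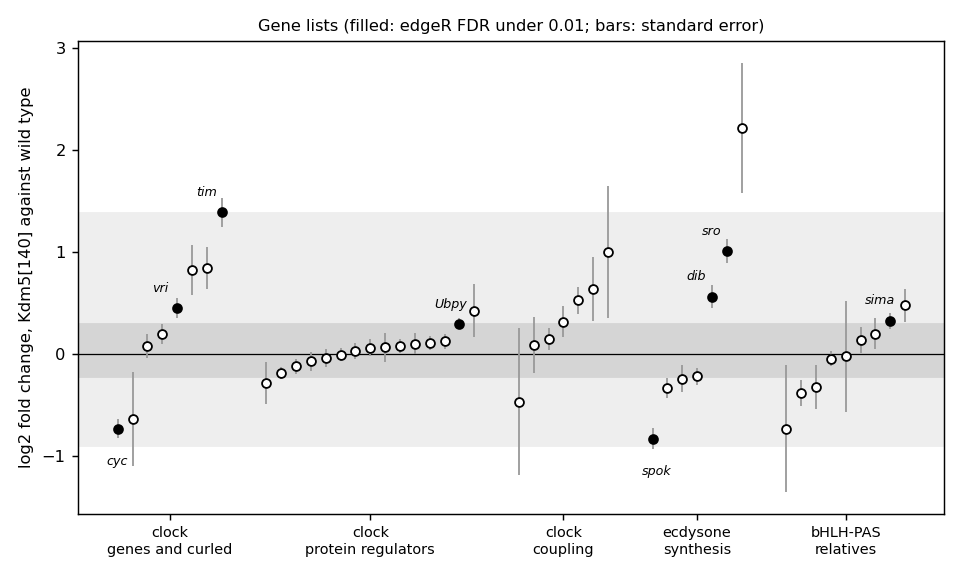
edgeR log2 fold changes, Kdm5[140] against wild type, of the tested genes of 5 lists, 1 point per gene with its standard error, filled where the FDR was under 0.01, over the 5th to 95th and 25th to 75th percentiles of all tested genes (light and dark bands). The 15 regulators of clock proteins lie between −0.28 and 0.43, while the clock genes run from −0.73 to 1.39.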

How the data were processed

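Libraries of polyA-enriched RNA from ring glands were sequenced in pairs of reads. Per the methods and labels, the authors aligned reads to dm6 with HISAT2 2.0.5, used StringTie 1.3.3b, counted with featureCounts 1.5.0-p3 and deposited whole-number counts per gene. The deposited table also holds FPKM of the authors (used only as an alternative for levels), a mean signal per genotype, and the authors' log2 fold changes and p-values from DESeq2 1.20.0, none of which was used. Counts were normalized by TMM, filtered with filterByExpr and compared by the robust quasi-likelihood test of edgeR 4.0.16 in R 4.3.3 with Benjamini-Hochberg adjustment over all tested genes (FDR). Standard errors were derived from the F statistic. Alternatives were DESeq2 1.42.0, limma 3.58.1 (voom), other normalizations and filters, the replicate number as a block, an FDR of 0.05 and each library left out. Python 3.11.15 with pandas 2.3.3 and scipy 1.17.1 was used for the rest.

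Members and lists were chosen with earlier results of these data known. Named were the 9 genes, listed genes that were called or untested, the targeted gene, and the 2 genes most like each called member; others named beside a result were chosen after their values were seen. Gene positions are those of the table and match the Ensembl release 115 annotation for all 9 genes, from which transcripts and overlaps were taken. The code of the fits was run on simulated counts with known changes, drawn from a model fitted to these data. No result here rests on that check. Libraries of 1 genotype differed by more than sampling noise in each pair (chi-square over its degrees of freedom, 11.2 to 63.1).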

Additional observations from a re-analysis of the deposited data

Results flagged for a closer look

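Among the 9 genes and the 5 other listed genes that were called, each in 2 groups of 4 libraries, 1 library stood apart from the other 3 of its genotype. spok had 7897 CPM in replicate 3 labelled Kdm5[140], where the nearest library had 6087 CPM and the lowest 5890.2 CPM. The gap took up 0.902 of the range of the 4 values, which is above Dixon's critical value at the 95% level, and chance alone gives such a gap in about 1 of 20 groups. None of the 9 clock and cu genes was marked in this way in either genotype (0 of 18 groups).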

How the results depend on the processing

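tim and cyc were called with the same sign in every fit run. With DESeq2, 5 clock genes (tim, cyc, vri, Pdp1 and cry), 2 regulators, 1 coupling gene (tor) and 5 ecdysone genes were called. An FDR of 0.05 gave 5, 2, 1 and 5 genes in the same lists, and 3 bHLH-PAS genes in place of 1. Upper-quartile factors, library totals and the replicate block each called 1 coupling gene in place of 0, and the replicate block called 2 bHLH-PAS genes. limma voom and the fit without a filter called 0 bHLH-PAS genes. With 1 library left out, the numbers called were 2 to 4 for the clock genes, 0 to 1 for the regulators, 0 to 2 for coupling (2 without wild-type replicate 1), 2 to 5 for ecdysone synthesis (5 without replicate 3 labelled Kdm5[140]) and 0 to 1 for bHLH-PAS genes. cry was also called without wild-type replicate 1, without a filter, and with library totals alone. cwo ran from −0.0022 to 0.18 with 1 library left out and changed sign once, without wild-type replicate 3. With library totals in place of TMM, 63.9% of calls over all genes were higher, in place of 45.1%, and the median log2 fold change over all genes moved by 0.10. Same-numbered libraries of the genotypes did not deviate together throughout (correlations from −0.12 to 0.19), and with the replicate block 1617 genes were called in place of 1633, with the same 3 clock genes. Leaving out each library in turn gave between 960 and 1827 calls over all genes, and fewer samples enter those fits. The order of the 9 levels was the same with the deposited FPKM, and ratios within a library are the same by construction, since both come from the same counts and gene lengths. Clk and per had the fewest counts, down to 2 and 9 in single libraries, and also varied between libraries, and the share of each in their errors was not tested.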

Other observations

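Other bHLH-PAS genes, relatives of Clk and cyc, were measured in the same libraries. All 9 genes of that list were tested, with a median log2 fold change of −0.02, and 1 was called by edgeR, against 17.5% of all tested genes. This was sima, which encodes the hypoxia-inducible factor alpha subunit, with 140 ± 13.1 CPM in wild type and 176 ± 8.97 CPM in mutant-labelled libraries (n = 4 each, SD; log2 fold change 0.33 ± 0.08, SE; FDR = 0.00975 by edgeR). Its call was kept in 1 of 8 fits with a library left out, the fit without wild-type replicate 1 (edgeR FDR from 0.00354 to 0.0375). tgo, the common partner of several of these proteins, had a log2 fold change of −0.05 ± 0.07 (SE; FDR = 0.667 by edgeR).

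The larval photoreceptor opsin gene Rh6, listed only as a marker and singled out after its values were seen, had 6, 8, 2 and 0 counts in wild-type replicates 1 to 4. It had 17, 22, 16 and 23 counts in replicates 1 to 4 labelled Kdm5[140], all above wild type. Of all tested genes 15.6% were higher without overlap. The log2 fold change of Rh6, 2.17 ± 0.68 (SE; FDR = 0.0352 by edgeR), did not pass the threshold of 0.01. DESeq2 did not call it either (adjusted p = 0.0136). Rh5 and ninaE, the other opsin genes looked at, had 5 to 17 and 1 to 17 counts per library, with overlap between genotypes.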
